A study of Mus musculus with 12 samples.

Results

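Transcription factors that pattern the developing hypothalamus and mark its neurons and ependymal cells were examined in the adult arcuate nucleus (ARC). The 10 genes were Nkx2-1, Tbx3, Tbx2, Otp, Isl1, Nr5a1, Fezf1, Hmx2, Hmx3 and Dlx1. They were set by symbol, in a choice made with earlier results of these data known, and all 10 were found among the 16640 genes measured. All 10 passed the filter on low values and were tested. The question was whether neuron identity holds after Esr1 is deleted in cells of the Nkx2-1 lineage.

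Hypothalamic nuclei acquire their neurons through overlapping domains of homeobox, T-box, LIM-homeobox and zinc-finger factors, and many of these factors stay on in the mature cells. Nkx2-1 marks the basal (tuberal) hypothalamus and is needed for it to develop normally. Tbx3 and Tbx2 act in the floor of the third ventricle, and Tbx3 is also kept in arcuate neurons and in tanycytes, the radial ependymal cells that line it. Isl1 activates Pomc in arcuate neurons, Hmx2 and Hmx3 are needed for neurons that make growth hormone-releasing hormone, Otp directs several peptidergic neuron types, and Dlx1 acts in GABAergic neurons. Nr5a1 (also called SF-1) and Fezf1 define the ventromedial nucleus, which lies directly above the ARC. They are read here beside markers of neighbouring tissue as well as members of the group. Whether Esr1 was also deleted in ventromedial cells was not tested, so their signal is not a gauge of dissection alone.

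RNA was sequenced from microdissected ARC of female mice aged 27 weeks. All animals carried the floxed Esr1 alleles (Esr1 fl/fl, on a CD-1;129P2 mixed background), and mutants also carried the Nkx2-1 Cre driver (Esr1 Nkx2-1Cre), which acts in every cell with an Nkx2-1 history and not in the ARC alone. Standard chow was fed to the animals of 3 control and 4 mutant libraries. A high-fat diet (HFD) was fed for 17 weeks to those of 2 control and 3 mutant libraries. The 4 groups are called control chow, mutant chow, control HFD and mutant HFD. The sources used here do not say whether Cre was inserted at the Nkx2-1 locus or elsewhere, and its part in the Nkx2-1 signal was not tested. Nothing in the labels says that the libraries of a group came from separate animals, so p-values measure the spread between these libraries.

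Promoter sequence is shown for the member with the widest range of signal, Fezf1, and for the adjacent genes Hmx3 and Hmx2, whose signals did not move together. The sequences are RefSeq start-site windows on GRCm38.p6, cut to the bases upstream of the annotated exons and written 5' to 3' on the gene's strand, with each CpG in capitals. They lie at chr6:23248363-23248514 (minus strand), chr7:131542713-131542866 (plus strand) and chr7:131548507-131548756 (plus strand).
Fezf1: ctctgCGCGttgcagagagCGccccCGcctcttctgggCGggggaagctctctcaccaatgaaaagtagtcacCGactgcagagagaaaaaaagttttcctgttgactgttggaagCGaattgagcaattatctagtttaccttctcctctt
Hmx3: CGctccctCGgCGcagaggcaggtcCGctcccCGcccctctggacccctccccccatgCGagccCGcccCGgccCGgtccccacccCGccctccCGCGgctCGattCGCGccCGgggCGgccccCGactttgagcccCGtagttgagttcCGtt
Hmx2: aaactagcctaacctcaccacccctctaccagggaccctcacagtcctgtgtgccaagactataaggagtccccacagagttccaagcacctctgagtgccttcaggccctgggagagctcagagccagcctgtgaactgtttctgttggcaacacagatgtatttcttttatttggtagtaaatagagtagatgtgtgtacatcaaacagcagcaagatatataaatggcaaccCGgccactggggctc
The Hmx3 window held 39 CpG in 300 bases, above 37 in Isl1, 27 in Dlx1, 20 in Otp, 13 in Fezf1 and 12 in Nkx2-1, against a median of 7 over 32851 windows. The Hmx2 start shown held 2, and a second Hmx2 start, at position 131554293, held 22. RefSeq windows were matched for 7 of the 10 members, in 8 windows. The half-site AGGTCA, which oestrogen receptors and NR5A receptors share, occurred on either strand in the windows of Dlx1, Hmx2 and Nkx2-1 (3 of 8), against 16.3% of all windows. The homeobox core TAATTA occurred in 0 of 8 (5.29% of all windows), the T-box core AGGTGT in 0 of 8 (13.7%) and the oestrogen response element palindrome in 0 of 8 (0.07%). Such a match is a string of letters in this window and says nothing of binding.

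In the GENCODE annotation of GRCm38 the members lie on 7 chromosomes. Hmx3 (chromosome 7, 131542867 to 131544925) ends 3847 bp before Hmx2 (131548773 to 131558014) on the same strand, inside the span of Fgfr2 but sharing 0 exon bases with it. Fezf1 (chromosome 6, 23245044 to 23248362, minus strand) and Nr5a1 (chromosome 2, 38692656 to 38714542, minus strand) are unlinked. Tbx2 lies on chromosome 11 (85832551 to 85841948) and Tbx3 on chromosome 5 (119670669 to 119684724). Tbx3 shares 115 exon bases with the antisense gene Tbx3os1, and Dlx1 (chromosome 2, 71528113 to 71533981) shares 335 with Dlx1as. The use of strand in quantification was not stated, so reads from a member and its antisense partner cannot be told apart.

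Values are the deposited abundance signal, a length-normalised, TPM-like quantity that summed to 922172 to 1254999 per library. Sequencing depth is unknown, so no counting error is given. Between 201 and 1768 genes were listed at 0 in a library, the most in mutant chow replicate 3. The deleted gene, Esr1, had a signal of 17.8, 7.29 and 19.8 in control chow and 6.05, 3.15, 1.93 and 1.65 in mutant chow, but 15.3 and 22.4 in control HFD and 10.7, 16.6 and 11.9 in the libraries labelled mutant HFD. In the last group Esr1 went against its label, and every direction drawn from it below carries that limit. All 10 arcuate markers (Agrp, Npy and Pomc among them) were present in every library, with a summed signal of 2169 to 8238. The 5 suprachiasmatic markers had a summed signal of 16.53 to 39.25. The suprachiasmatic peptide Vip was at 5.85 or less in every library, while the peptide Nms ran from 3.15 to 25.8. Rgs16 reached 14.2, Prok2 10.25 and Lhx1 6.76. Markers of the paraventricular and supraoptic nuclei ran from a summed signal of 1938 to 8351, with Avp at 77.3 to 3051. Of the lists given here those of the pars tuberalis and pituitary ranged most as a fold, from a summed signal of 118 to 5624, with Cga at 4802 in control chow replicate 2 and 82.0 in control HFD replicate 1. In bulk RNA, fewer cells of a type and less RNA per cell cannot be told apart.

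The members spanned a wide range of levels. Over 12 libraries the mean signal, on this length-normalised scale, was 125.7 ± 33.6 (SD, n = 12) for Otp, 72.6 ± 34.7 for Isl1, 61.4 ± 10.47 for Nkx2-1, 55.1 ± 16.5 for Tbx3 and 39.2 ± 12.5 for Dlx1. A lower tier held Fezf1 at 14.5 ± 10.9, Hmx3 at 13.7 ± 6.35, Nr5a1 at 8.92 ± 7.33, Tbx2 at 8.54 ± 3.46 and Hmx2 at 4.61 ± 2.29. The mean of Otp was above that of 92.5% of all genes and the mean of Hmx2 above that of 25.8%. Every pair of neighbours in this order had overlapping ranges over the 12 libraries, so the order of neighbours is not separated by their spread. The clearest steps were from Otp to Isl1 and from Dlx1 to Fezf1, in each of which the higher gene led in 11 of 12 libraries.

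**Figure D1:**
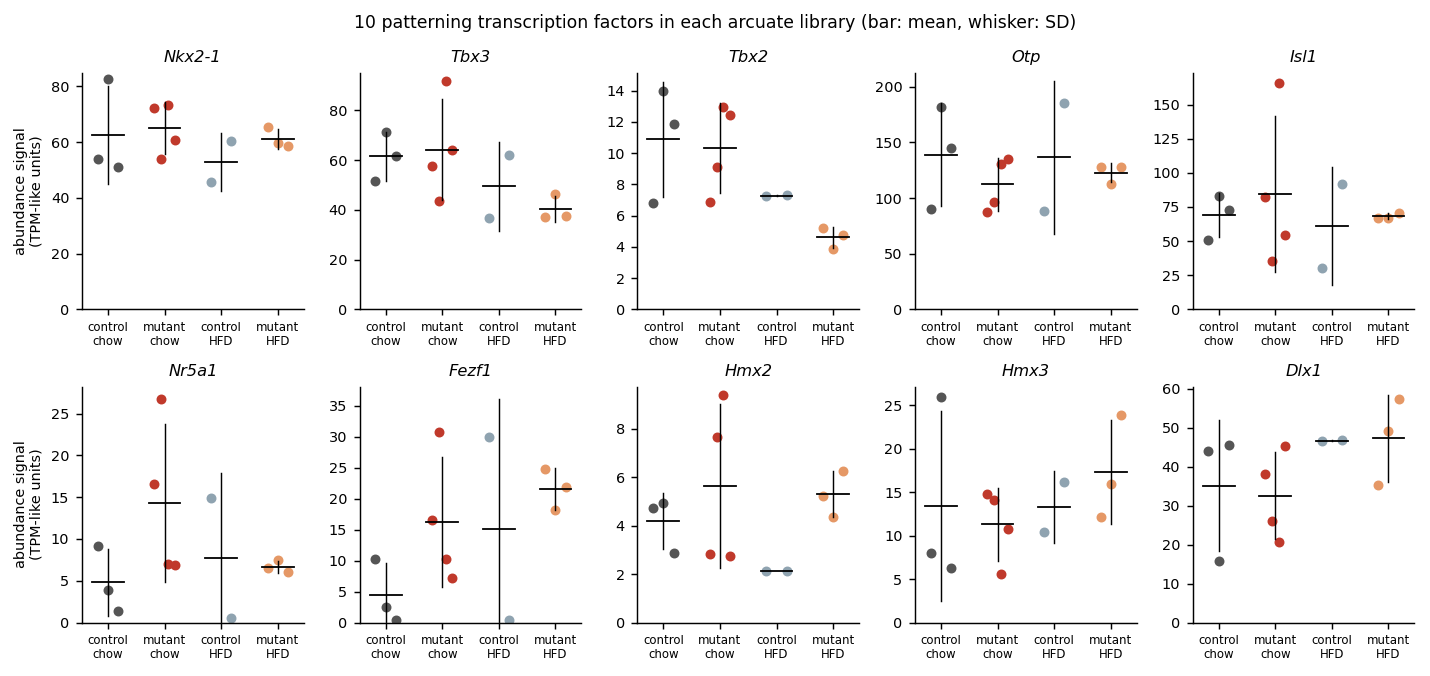
Signal (TPM-like units, linear axes from 0, one scale per gene) of each of the 10 factors in the 12 libraries. Each point is 1 library, the bar is the group mean and the whisker its SD, which is not drawn below 0. Nkx2-1 lies between 45.6 and 82.7 in all groups, the 3 mutant HFD points of Tbx2 lie below every other point, and Nr5a1 and Fezf1 scatter from near 0 to 26.8 and 30.8.

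The first comparison asked whether the factors differed between genotypes on chow, the diet on which Esr1 was low in mutants. None of the 10 passed an adjusted p of 0.05, and neither did Esr1 itself (log2 difference -1.93 ± 0.41, SE, limma, Benjamini-Hochberg adjusted p = 0.694). The background was low, since 3 of 15801 genes (0.019%) passed that threshold. At an unadjusted p under 0.05, 1 of the 10 (Fezf1) passed, against 4.34% of all genes. The 2 groups overlapped for all 10 members, against 4.51% of genes without overlap. The median absolute log2 difference of the members was 0.08 against 0.21 for all genes on chow, but it was 0.35 against 0.20 between genotypes on HFD, 0.19 against 0.13 averaged over diets, 0.56 against 0.22 for HFD in mutants and 0.35 against 0.25 for HFD in controls.

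Nkx2-1 and the T-box genes had small fitted differences in this comparison. Nkx2-1, the factor whose lineage carries the deletion, was at 53.8, 82.7 and 51.1 in control chow and 72.1, 54.1, 73.4 and 60.7 in mutant chow. The mutant libraries all lay inside the control range, and the fitted ratio was 1.06 with a 95% interval of 0.786 to 1.42. The top of that range came from control chow replicate 2, the library with the highest column sum (1254999). With columns rescaled to 1000000 the log2 difference of Nkx2-1 was 0.17 (limma, unadjusted p = 0.339), in place of 0.079. Tbx3 was at 51.8, 71.5 and 61.7 in controls and 57.6, 43.4, 91.9 and 63.9 in mutants, a ratio of 1.01 (0.693 to 1.48). Tbx2 was at 6.80, 14.01 and 11.85 in controls and 6.87, 9.14, 12.97 and 12.42 in mutants, a ratio of 0.965 (0.611 to 1.53). These ratios are on the log2(signal + 1) scale, and the widest of the 3 intervals, that of Tbx2, still holds a change of about 1.5-fold in either direction.

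Among the neuronal factors Isl1, Hmx2, Hmx3 and Dlx1 had wider intervals than Tbx2, and Otp a narrower one. Otp was at 90.2, 182.3 and 144.7 in control chow and 87.8, 96.2, 130.5 and 135.0 in mutant chow, with a ratio of 0.829 (0.543 to 1.26) and overlapping groups. Isl1 was at 51.1, 82.8 and 73.0 in controls and 82.5, 35.6, 165.6 and 54.1 in mutants, so that the mutants held both the lowest and the highest value, with a ratio of 1.06 (0.535 to 2.10). The highest, 165.6, was in mutant chow replicate 3, the library with the most genes at 0. Dlx1 was at 43.9, 15.8 and 45.7 in controls and 38.2, 26.1, 20.7 and 45.2 in mutants, a ratio of 0.980 (0.570 to 1.69). Hmx2 gave a ratio of 1.18 (0.648 to 2.14) and Hmx3 one of 0.966 (0.486 to 1.92). A change of 1.5-fold in either direction lies inside the intervals of Isl1, Dlx1, Hmx2 and Hmx3, so the fit does not exclude it.

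The ventromedial factors had the largest differences between genotypes. Fezf1, a zinc-finger repressor, was at 10.3, 2.59 and 0.433 in control chow and 16.6, 30.8, 10.3 and 7.25 in mutant chow. Of the mutant libraries 3 of 4 lay above the highest control library, 2 of them by more than 5 units, and the groups overlapped. The log2 difference was 1.97 ± 0.90 (SE) in the limma fit, at an unadjusted p = 0.0496 and a Benjamini-Hochberg adjusted p = 0.982. Nr5a1, a nuclear receptor, was at 9.11, 3.92 and 1.35 in control chow and 16.53, 26.77, 6.999 and 6.899 in mutant chow, a log2 difference of 1.44 ± 0.74 (SE, unadjusted p = 0.074, adjusted p = 0.982). Neither passed the threshold over all genes. Leaving out control chow replicate 3 brought the Fezf1 difference to 1.2496 (unadjusted p = 0.223) and the Nr5a1 difference to 0.91 (unadjusted p = 0.282). Over the 12 fits that left out 1 library, Fezf1 had an unadjusted p under 0.05 in 4 and an adjusted p of 0.726 or more. Fits without an HFD library leave this difference unchanged at 1.97.

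On HFD, 0 of 10 members passed the adjusted threshold (limma, Benjamini-Hochberg), as did 0.00633% of all genes, and 0 of 10 had an unadjusted p under 0.05, against 2.21%. The groups did not overlap for 2 of 10 members, against 15.7% of all genes, a high background because 2 libraries are compared with 3. Hmx2 was at 2.12 and 2.12 in control HFD and at 5.23, 4.37 and 6.27 in the libraries labelled mutant HFD, with a log2 difference of 1.00 ± 0.47 (SE, unadjusted p = 0.0564, adjusted p = 1). Tbx2 was at 7.25 and 7.32 in control HFD and at 5.22, 3.88 and 4.75 in those labelled mutant HFD, with a log2 difference of -0.57 ± 0.36 (SE, unadjusted p = 0.144, adjusted p = 1). In both, 2 nearly equal control libraries set the distance between the groups. Hmx2 on chow ranged from 2.76 to 9.38 in mutants and from 2.85 to 4.95 in controls, so that the HFD controls lay under all other libraries.

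The ventromedial factors on HFD rested on a single library. Fezf1 was at 29.9 in control HFD replicate 1 and 0.443 in replicate 2, while the libraries labelled mutant HFD held 24.9, 18.1 and 21.8. The log2 difference of 1.75 ± 1.08 (SE, limma, unadjusted p = 0.131, adjusted p = 1) became -0.46 without control HFD replicate 2 and 3.96 without control HFD replicate 1. Nr5a1 was at 14.9 and 0.489 in control HFD and 6.504, 7.449 and 6.058 in those labelled mutant HFD. Its difference of 0.65 ± 0.88 (SE, unadjusted p = 0.474) likewise became -1.06 or 2.36. Control HFD replicate 1, with the higher value of both factors, also stood apart in genes of tissue outside the hypothalamus. The thalamic factor gene Tcf7l2 was at 74.7 there and at 12.3 to 24.98 in the other 11 libraries, and Lhx9 at 5.96 against 1.93 or less. Zic1 was at 29.1, against 21.9 in mutant chow replicate 1 and 7.23 or less elsewhere. The part of such tissue in the HFD values was not tested. In the 3 mutant libraries Fezf1 lay in the upper part of its range and Nr5a1 near its median of 6.95.

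Averaged over both diets, 0 of 10 members passed the adjusted threshold (0.00633% of all genes), and 1 of 10, Fezf1, had an unadjusted p under 0.05 (2.85% of all genes). The averaged log2 difference of Fezf1 was 1.86 ± 0.70 (SE) in the limma fit, at an unadjusted p = 0.0212 and a Benjamini-Hochberg adjusted p = 1. It fell to 0.75 without control HFD replicate 2 and rose to 2.96 without control HFD replicate 1, each of which leaves 1 library in that group. The averaged interval of Nkx2-1 was the narrowest of the 10, at a ratio of 1.11 (0.881 to 1.40). The genotype effect did not differ between the diets for any member at the adjusted threshold (0 of 10, against 0.0% of genes) or at an unadjusted p under 0.05 (0 of 10, against 3.44%), and the intervals of this interaction ran from a ratio of 0.696 to 1.74 for Nkx2-1 to one of 0.103 to 7.16 for Fezf1. For Esr1 the interaction was 1.44 ± 0.63 (SE, unadjusted p = 0.0423, adjusted p = 0.999).

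**Figure D2:**
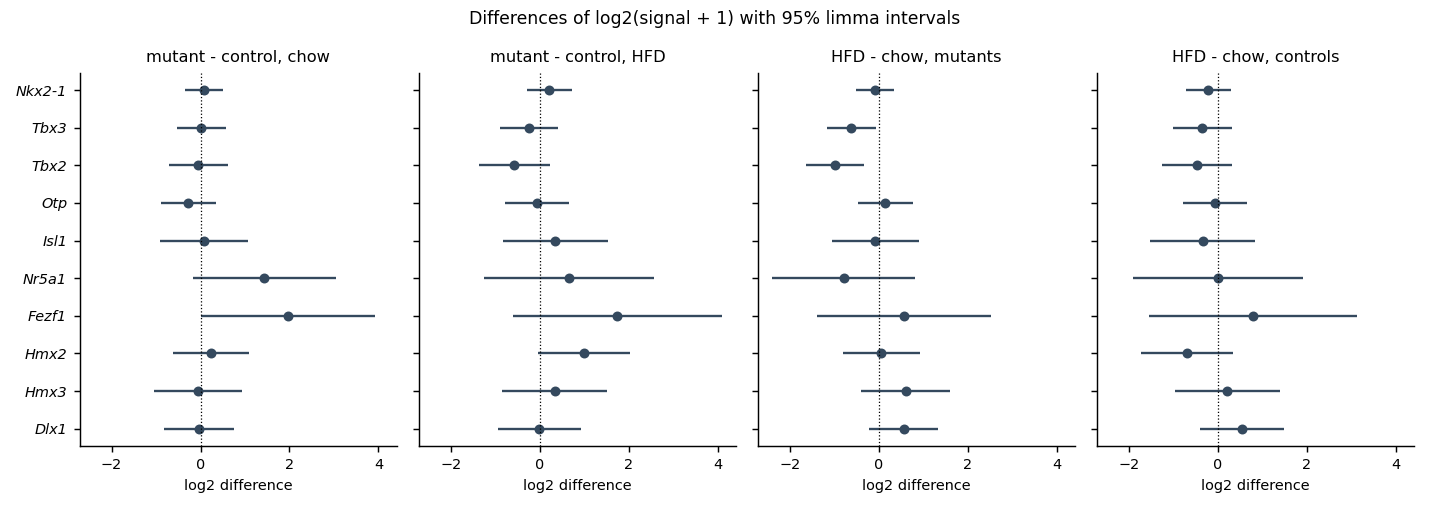
Log2 differences of log2(signal + 1) for the 10 factors in 4 contrasts, with 95% limma intervals as lines, zero as a dotted line and one shared axis. The intervals of Nkx2-1 are narrowest and those of Fezf1 and Nr5a1 widest, and the intervals of Tbx2 and Tbx3 lie below zero for HFD against chow in mutants.

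Diet was compared within each genotype, and the comparisons share groups with those above. In mutants, 0 of 10 members passed the adjusted threshold for HFD against chow (0.019% of all genes), and 2 of 10, both T-box genes, had an unadjusted p under 0.05 (5.37% of all genes). Tbx2 was at 6.87, 9.14, 12.97 and 12.42 in mutant chow and at 5.22, 3.88 and 4.75 in the libraries labelled mutant HFD. These 3 values were the lowest of all 12 libraries, and Tbx2 was the 1 of 10 members whose groups did not overlap here, against 7.99% of all genes. The ratio of the group means was 0.446 and the log2 difference -0.98 ± 0.30 (SE) in the limma fit, at an unadjusted p = 0.00683 and a Benjamini-Hochberg adjusted p = 0.724, which placed Tbx2 at rank 149 of 15801 by p. Leaving out each library in turn kept the difference between -1.15 and -0.87, with an unadjusted p under 0.05 in 12 of 12 fits and an adjusted p of 0.641 or more. Tbx3 was at 37.1, 46.2 and 37.6 in the libraries labelled mutant HFD, within reach of the lowest mutant chow library (43.4), with a log2 difference of -0.61 ± 0.25 (SE, unadjusted p = 0.0307, adjusted p = 0.891). Its unadjusted p stayed under 0.05 in 8 of the 12 fits. For both T-box genes the fits without a control library leave the difference itself unchanged, so they say little of its stability. The unadjusted p of Tbx3 (limma) was 0.0884 without mutant chow replicate 3 and 0.0565 without mutant chow replicate 4. It was 0.0859 without mutant HFD replicate 1 and 0.081 without mutant HFD replicate 3.

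In controls, 0 of 10 members passed the adjusted threshold for HFD against chow, as did 0.0% of all genes, and 0 of 10 had an unadjusted p under 0.05 (limma, 3.54% of all genes). The T-box genes were again lower on HFD in the fit, with 95% intervals that held 0, at a log2 difference of -0.47 ± 0.36 (SE) for Tbx2 and -0.35 ± 0.30 for Tbx3. Control HFD replicates 1 and 2 held Tbx2 at 7.25 and 7.32, inside the control chow range. The interaction of genotype and diet was -0.52 ± 0.47 (SE, limma, unadjusted p = 0.296) for Tbx2, so a diet difference particular to 1 genotype was not shown. Groups did not overlap for 2 of 10 members, against 14.1% of all genes. These were Hmx2, lower on HFD, and Dlx1, at 46.6 and 46.8 on HFD against 43.9, 15.8 and 45.7 on chow, a step of under 1 unit above the highest chow library. In a test of any difference among the 4 groups 0 of 10 members passed the adjusted threshold (0.019% of all genes), and 1 of 10, Tbx2, had an unadjusted p under 0.05 (unadjusted p = 0.0229, against 3.83% of all genes).

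The 95% intervals of the remaining members held 0 for the diet differences. In mutants the log2 difference for HFD was -0.08 ± 0.20 (SE) for Nkx2-1, 0.15 ± 0.28 for Otp, -0.08 ± 0.45 for Isl1, 0.06 ± 0.40 for Hmx2, 0.60 ± 0.46 for Hmx3, 0.56 ± 0.36 for Dlx1, -0.79 ± 0.74 for Nr5a1 and 0.57 ± 0.90 for Fezf1. Some of them moved when the pan-neuronal score was added. With the pan-neuronal marker score as a covariate the difference was 0.53 for Otp (limma, unadjusted p = 0.0032, adjusted p = 0.915), -1.76 for Nr5a1 (unadjusted p = 0.00147, adjusted p = 0.809) and -0.59 for Fezf1 (unadjusted p = 0.306). In control HFD Nkx2-1 was at 45.6 and 60.2, against 65.3, 59.8 and 58.5 in those labelled mutant HFD. Hmx3 reached its highest HFD value, 23.9, in mutant HFD replicate 3, but control chow replicate 2 stood higher still at 26.0, against 7.97 and 6.28 in the other control chow libraries. Isl1 was at 30.5 and 91.5 in control HFD and at 67.0, 66.6 and 70.5 in those labelled mutant HFD. The 3 libraries labelled mutant HFD lay close together for most members, with a coefficient of variation of 3.19% for Isl1, 5.89% for Nkx2-1 and 7.02% for Otp.

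Tanycyte markers were among those that moved with the T-box genes. The summed signal of 7 tanycyte markers (Rax, Gpr50, Col25a1, Crym, Dio2, Frzb and Vim) was 586 to 791 in control chow, 481 to 863 in mutant chow, 405 to 637 in control HFD and 377 to 481 in the libraries labelled mutant HFD. All 7 were above 0 in every library. Across 12 libraries, which share dissection and quantification, Pearson's r of the marker score was 0.90 with Tbx3 and 0.76 with Tbx2. Singly, r with Tbx2 ran from 0.38 for Crym to 0.81 for Vim. For the pan-neuronal score r was -0.80 with Tbx3 and -0.71 with Tbx2, and for the arcuate score 0.74 and 0.52. The tanycyte score was then used as a covariate, a choice made after the data had been seen. The HFD difference in mutants was then -0.17 for Tbx3 (limma, unadjusted p = 0.423) and -0.70 for Tbx2 (unadjusted p = 0.066). With the pan-neuronal score, a planned covariate, it was -0.37 for Tbx3 (unadjusted p = 0.113) and -0.78 for Tbx2 (unadjusted p = 0.024). The part of tanycyte content in the T-box differences was not tested otherwise.

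**Figure D3:**
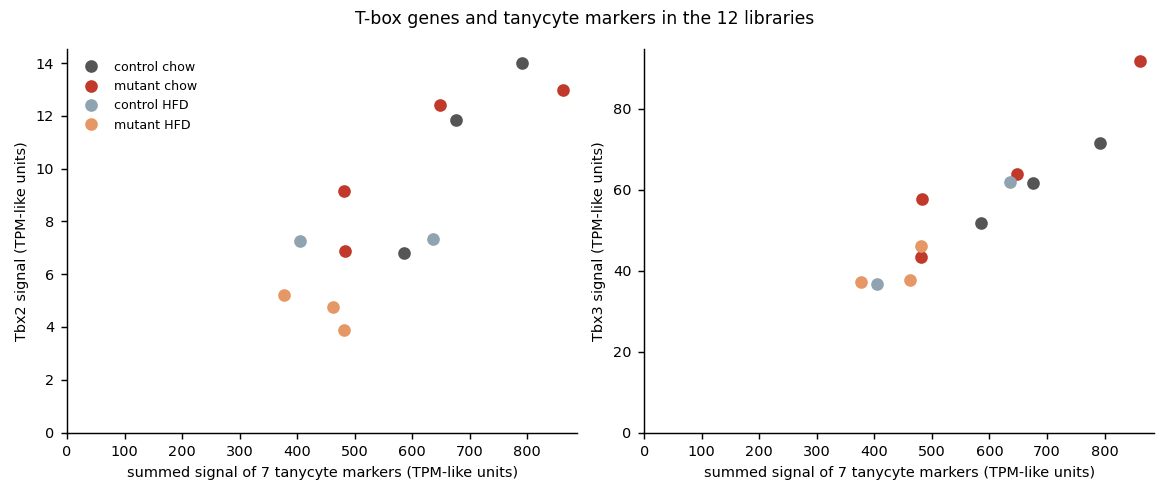
Tbx2 (left) and Tbx3 (right) signal against the summed signal of 7 tanycyte markers, all in TPM-like units on linear axes, with 1 point per library coloured by group. Tbx3 rises along with the marker sum from 377 to 863, and the 3 mutant HFD points of Tbx2 are the lowest Tbx2 values.

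Spread between libraries of 1 group set what could be seen. The residual SD of log2(signal + 1) was 0.25 for Nkx2-1, and 19.005% of all genes had a smaller one. It was 0.36 for Tbx3, 0.35 for Tbx2 and 0.42 for Otp, near the median of 0.40 over all genes. It was 0.52 for Hmx2, 0.54 for Dlx1, 0.68 for Hmx3 and 0.71 for Isl1, and reached 1.14 for Nr5a1 and 1.43 for Fezf1, above 96.7% and 98.7% of genes. From its lowest to its highest library Nkx2-1 ranged 1.81-fold, Otp 2.11-fold, Nr5a1 54.8-fold and Fezf1 71.3-fold.

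The wide spread of Nr5a1 and Fezf1 was shared between them. Pearson's r of the pair was 0.88 over 12 libraries and 0.98 after each group mean was subtracted, although the genes lie on different chromosomes. Control chow replicate 3 and control HFD replicate 2 were the lowest libraries of both, and mutant chow replicate 2 the highest of both. Of 6 markers of ventromedial neurons 4 moved with them. Slc17a6, the vesicular glutamate transporter gene, was at 34.4, 17.4 and 21.8 in control chow, 53.0, 70.3, 20.4 and 20.9 in mutant chow, 89.7 and 11.5 in control HFD and 49.2, 59.6 and 54.7 in the libraries labelled mutant HFD. The score of 6 ventromedial markers (Adcyap1, Slc17a6, Fam107b, Gpr149, Rreb1 and Cbln1) had an r of 0.90 with Fezf1 and 0.82 with Nr5a1. Their summed signal was 105 to 146 in control chow, 116 to 299 in mutant chow, 98.5 to 276 in control HFD and 178 to 258 in the libraries labelled mutant HFD. All 6 were above 0 in every library. Singly, r with Nr5a1 and with Fezf1 was 0.77 and 0.86 for Adcyap1, 0.79 and 0.88 for Slc17a6, 0.85 and 0.88 for Cbln1 and 0.69 and 0.89 for Gpr149. It was 0.10 and 0.19 for Fam107b, and 0.10 and -0.09 for Rreb1. Rgs16, from the suprachiasmatic list, had 0.82 and 0.94.

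With the ventromedial score as a covariate, a choice made after the data had been seen, the genotype difference on chow was 0.53 for Fezf1 (limma, unadjusted p = 0.392) and 0.20 for Nr5a1 (unadjusted p = 0.637), in place of 1.97 and 1.44. On HFD it was 0.80 for Fezf1 and -0.16 for Nr5a1. The ventromedial score may itself differ with genotype, so this fit cannot tell tissue content from a genotype difference in ventromedial cells. With the pan-neuronal score as the covariate instead, the difference on chow was 1.32 for Fezf1 (unadjusted p = 0.0276, adjusted p = 0.96) and 0.90 for Nr5a1 (unadjusted p = 0.0439, adjusted p = 0.96). On HFD it was then 1.62 for Fezf1 (unadjusted p = 0.0219) and 0.54 for Nr5a1 (unadjusted p = 0.266), and averaged over diets 1.47 (unadjusted p = 0.00373) and 0.72 (unadjusted p = 0.0377). Within mutant chow alone, replicates 1 and 2 had both the higher Nr5a1 and Fezf1 and the higher Adcyap1 (80.5 and 87.1, against 34.25 and 35.95 in replicates 3 and 4). The part of tissue from the ventromedial nucleus in these differences was not tested otherwise. The sample titles each carry a further number, whose meaning the labels do not give. It was higher in control chow replicate 3, mutant chow replicates 3 and 4 and control HFD replicate 2 than in any other library. Within their groups these libraries had the lowest Nr5a1 and Fezf1. The libraries labelled mutant HFD all had lower numbers. The part of this split in the differences was not tested.

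**Figure D4:**
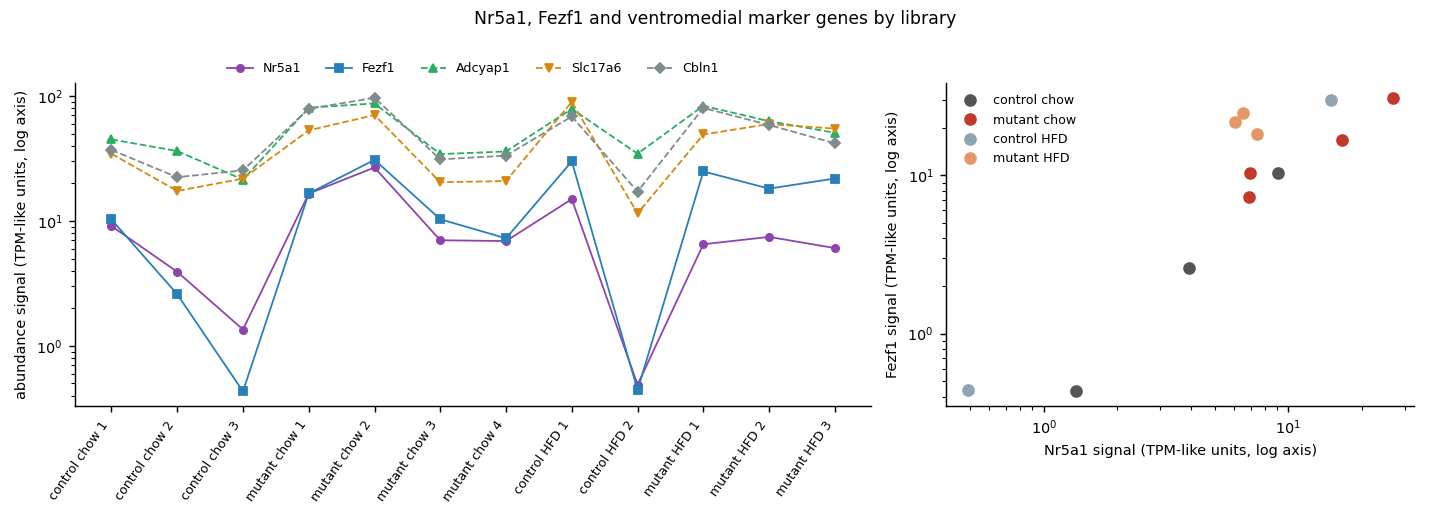
Left, signal of Nr5a1, Fezf1 and the ventromedial markers Adcyap1, Slc17a6 and Cbln1 in the 12 libraries (TPM-like units, log axis), with lines joining the values of a gene for legibility only. Right, Fezf1 against Nr5a1 on log axes, with 1 point per library. Both factors fall under 1.5 in control chow replicate 3 and control HFD replicate 2, where all 3 markers are also among their lower values.

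Likeness between members was otherwise limited. Over the 45 pairs of members the median r was -0.02, with 4 pairs above 0.7 and 2 below -0.7. Beside Nr5a1 with Fezf1, the pairs above 0.7 were Tbx3 with Tbx2 (0.75, and 0.47 with group means subtracted), Nkx2-1 with Isl1 (0.72 and 0.70) and Tbx3 with Isl1 (0.72 and 0.91). The pairs below -0.7 were Otp with Nr5a1 (-0.84) and Otp with Fezf1 (-0.75), a factor of arcuate and paraventricular peptide neurons against the ventromedial pair. Otp was at 87.8 and 96.2 in mutant chow replicates 1 and 2 and at 88.0 in control HFD replicate 1, the libraries with the highest Nr5a1, and at 185.2 in control HFD replicate 2, where Nr5a1 was lowest. The adjacent genes Hmx2 and Hmx3 had an r of -0.02. The libraries share dissection and quantification, and their values add up to a similar total.

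**Figure D5:**
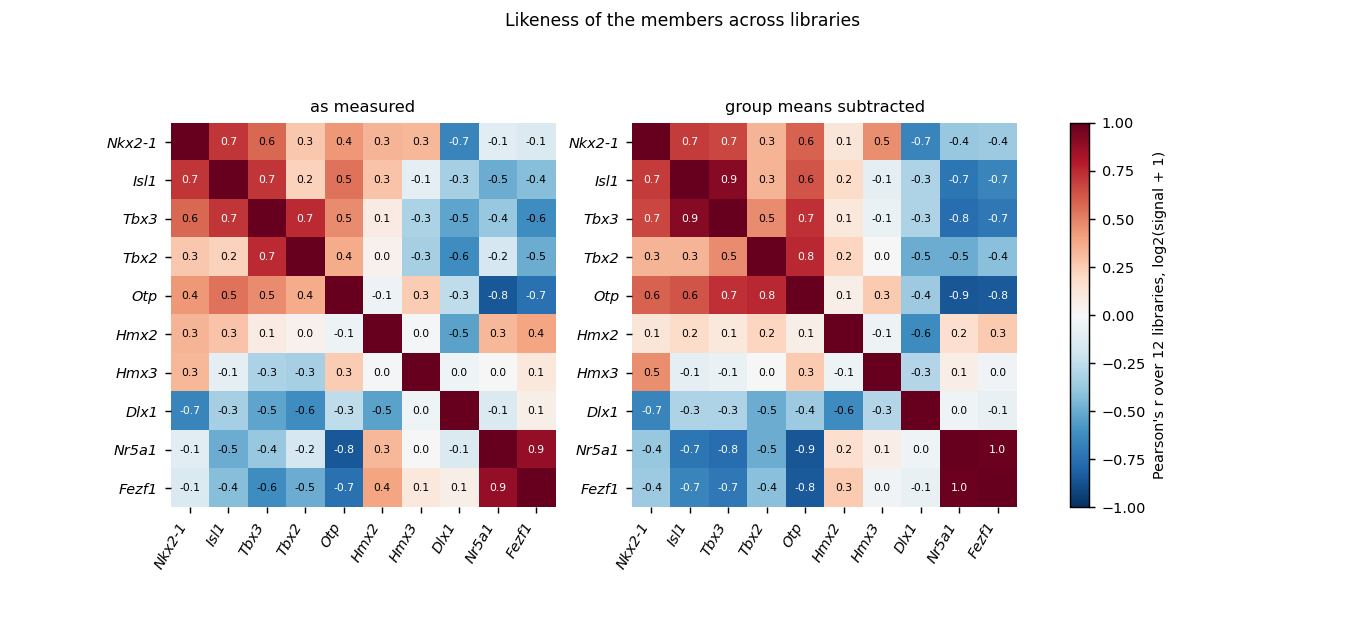
Pearson's r between the 10 factors over 12 libraries, on log2(signal + 1), as measured (left) and with each group mean subtracted (right), from blue (-1) to red (1). Nr5a1 and Fezf1 form 1 block (0.88 left, 0.98 right), Nkx2-1, Isl1, Tbx3, Tbx2 and Otp are mostly positive with each other, and Otp is negative with the ventromedial pair.

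The genes most like each member were sought among 11925 protein-coding genes with a mean of at least 5. The closest were Fastk and Znhit1 for Nkx2-1 (r = 0.93 and 0.92), Tgfbi and Memo1 for Tbx3 (0.94 and 0.92), Sorbs3 and Ccnd3 for Tbx2 (0.94 and 0.93), and Krcc1 and Cisd3 for Otp (0.91 and 0.90). They were Ankrd16 and Zfp950 for Isl1 (0.94 and 0.94), Usp37 and Nptx1 for Nr5a1 (0.90 and 0.88), Ddn and Syn2 for Fezf1 (0.96 and 0.94), Spsb1 and Zfp408 for Hmx2 (0.88 and 0.85), Tnnc1 and Snrpa1 for Hmx3 (0.91 and 0.91), and Zfp84 and Lcorl for Dlx1 (0.93 and 0.90). The highest r of an average gene in this search was 0.91 (median over genes), so these values are what 12 libraries give to any gene. Syn2 and Nptx1 are neuronal genes, and a pan-neuronal marker score had an r of 0.77 with Fezf1.

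Other hypothalamic transcription factors were counted in the same way. Of 66 factors in 7 lists (tuberal, ventromedial, paraventricular, Dlx and GABAergic, suprachiasmatic and preoptic, mammillary, and relatives of the members), 55 were in the table and 52 were tested. In each of the 6 contrasts 0 of 52 passed the adjusted threshold (limma, Benjamini-Hochberg). On chow 2 were higher and 3 lower in mutants at an unadjusted p under 0.05, against 4.34% of all genes. The count of 52 was 1 for genotype on HFD (2.21% of all genes), 2 averaged over diets (2.85%), 5 for HFD in mutants (5.37%), 3 for HFD in controls (3.54%) and 4 for the interaction (3.44%). The median log2 difference of the 52 was 0.0025 on chow (0.014 over all genes) and 0.024 for HFD in mutants (-0.025 over all genes). On chow the smallest p belonged to Dlx6, a distal-less homeobox gene of GABAergic neurons, at 19.5, 33.6 and 31.5 in control chow and 12.2, 5.81, 6.79 and 10.3 in mutant chow. These groups did not overlap, against 4.51% of all genes on chow, in a gene picked for the smallest p of 52. The log2 difference was -1.59 (limma, unadjusted p = 0.00129, adjusted p = 0.803). The second on chow was the LIM-homeobox gene Isl2, at 0.866, 2.56 and 0.994 in controls and 3.21, 4.79, 7.98 and 3.81 in mutants (log2 difference 1.27, unadjusted p = 0.0163, adjusted p = 0.982). Its groups did not overlap either, and overlap was not counted over the 52.

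Dlx1, a relative of Dlx6, had a ratio of 0.980 on chow, and the difference between the 2 genes was not tested. Dlx5, the genomic neighbour of Dlx6, had a log2 difference of -1.37 (unadjusted p = 0.0328), with mutant chow replicate 3 listed at 0. The other 2 were Vax1 (1.49, unadjusted p = 0.0385) and Nhlh2 (-1.02, unadjusted p = 0.048), and these 3 are named because the count is small. On HFD the Dlx6 values were 10.01 and 26.54 in controls and 24.5, 13.2 and 11.1 in the libraries labelled mutant HFD, with overlapping groups, and the interaction was 1.499 (unadjusted p = 0.0272, adjusted p = 0.999). For HFD against chow in mutants 4 of 52 were higher and 1 lower at an unadjusted p under 0.05, the count set against 5.37% above. These were Nr4a2, a nuclear receptor of dopaminergic neurons (2.10, unadjusted p = 0.000114, adjusted p = 0.251), Nhlh2 (1.79), Dlx5 (1.96), Irx5 (0.87) and, lower, Isl2 (-1.17).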

How the data were processed

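RNA of microdissected ARC from 12 libraries in 4 groups was analysed. The authors prepared libraries with a NEBNext Ultra II kit, sequenced them on a NovaSeq instrument, and quantified reads against mm10 transcripts with Kallisto, run in gene mode. Their own tests were made with Sleuth. The deposited table holds an abundance signal per gene, TPM-like but not TPM, since columns summed to 922172 to 1254999. Software versions, strand use and scaling between libraries were not given in the sources used here, and reads per gene could not be recovered, so depth and counting error are unknown. All columns were matched to samples (0 left unmapped), and no library duplicated another.

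The signal was analysed as log2(signal + 1). Genes at 1 or more in at least 2 libraries were kept (15801 of 16640). The pseudocount understates changes of low genes. limma 3.58.1 (R 4.3.3) modelled all 12 libraries with 1 mean per group and a trended prior variance (8 residual degrees of freedom), with two-sided moderated tests, 95% intervals and Benjamini-Hochberg adjustment over all genes at 0.05. Ratios with intervals are back-transformed from this fit. The 6 contrasts share groups. The fit was first tested on simulated data. Symbols and positions came from GENCODE M21 (16633 of 16640 IDs matched), and promoters from RefSeq (GRCm38.p6).

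The members and all gene lists were chosen with earlier results of these data known. Named genes were the members, Esr1, the 2 most correlated genes per member, and of the wider lists those past the adjusted threshold or otherwise the 2 of smallest p on chow. Nr4a2, Irx5, Dlx5, Vax1 and Nhlh2 were named after their values were seen, because their counts were small. Alternatives were a pseudocount of 0.1, no filter, a mean of at least 5, quantile normalisation, rescaled columns, no trend, array weights, only the groups compared, 2 marker scores as covariates, and each library left out. The ventromedial and tanycyte covariates and the replicate block were added after the data had been seen. Replicate numbers are those of the column names, and the labels give none.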

Additional observations from a re-analysis of the deposited data

How the results depend on the processing

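The count of members past the adjusted threshold was 0 in every contrast under every setting run. Of 1364 single log2 differences of members under these settings 1265 kept their sign and 99, each for a difference that did not pass the threshold, turned it. Part of the 1265 could not have turned, so the count does not measure stability. The changes of filter, no trend and only the groups compared leave each log2 difference as it was. So does leaving out a library of a group that a contrast does not use. The cause of a turned sign was not tested. Fezf1 and Nr5a1 on HFD turned with control HFD replicate 2 left out, and the counts over all genes moved between 0 and 9. A mean of at least 5 dropped Hmx2, which then had no value. The tests planned for counts were not run, because the table holds none. The labels give no replicate numbers, and nothing says that the numbers in the column names pair animals. Same-numbered libraries of different groups had a median r of 0.0037 in their deviations from the group means. Their r ran from -0.185 to 0.308, over 0.1 in 3 of 15 pairs, and the median was 0.0045 in the 38 other pairs. Deviations within a group add up to 0 for each gene, which pulls such medians toward 0. The 2 control HFD libraries mirror each other, with an r of 0.286 and -0.286 to control chow replicate 1. The check therefore cannot show whether libraries were paired. With the number as a replicate block, added after the data had been seen, 0 members passed the adjusted threshold. Depth, and with it the precision of the low genes Hmx2, Tbx2 and Nr5a1, is unknown.

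With a pseudocount of 0.1 the number of all genes called was 2 for genotype on HFD and 1 for the interaction. With quantile normalisation the turned log2 differences were Dlx1 at 0.015 for genotype on HFD, and Nr5a1 at 0.022 for HFD in controls. With columns rescaled to 1000000 the turned log2 differences were Tbx2 at 0.040, Hmx3 at 0.043 and Dlx1 at 0.059 for genotype on chow, and Otp at 0.080 and Nr5a1 at 0.10 for HFD in controls, and Nkx2-1 at -0.031 and Dlx1 at -0.14 for the interaction, and the number of all genes called was 5 for any difference among the 4 groups. With array weights the turned log2 differences were Tbx3 at -0.100, Isl1 at -0.22 and Hmx3 at 0.41 for genotype on chow, and Isl1 at 0.29 for HFD in mutants, and Otp at 0.045 for HFD in controls, and Hmx3 at -0.15 for the interaction, and the number of all genes called was 9 for HFD in mutants and 5 for any difference among the 4 groups. With the oligodendrocyte score as covariate the turned log2 differences were Hmx3 at 0.021 for genotype on chow, and Dlx1 at 0.0018 for genotype on HFD, and Nkx2-1 at -0.062 and Isl1 at -0.25 for the interaction. With the pan-neuronal score as covariate the turned log2 differences were Tbx2 at 0.063 and Hmx3 at 0.014 for genotype on chow, and Nkx2-1 at 0.058, Isl1 at 0.40 and Fezf1 at -0.59 for HFD in mutants, and Tbx3 at 0.0060, Otp at 0.48, Isl1 at 0.34 and Fezf1 at -0.89 for HFD in controls, and Fezf1 at 0.29 for the interaction, and the number of all genes called was 1 for HFD in mutants. With only the groups compared the number of all genes called was 1 for genotype on chow, 3 for genotype on HFD and 0 for HFD in mutants. With the ventromedial score, added after the data had been seen, the turned log2 difference was Nr5a1 at -0.16 for genotype on HFD. With the tanycyte score, likewise added later, the turned log2 difference was Tbx3 at 0.14 for HFD in controls. With the replicate block the turned log2 differences were Hmx2 at -0.16 for HFD in mutants, and Otp at 0.021 for HFD in controls, and Isl1 at -0.068 for the interaction, and the number of all genes called was 1 for genotype on chow, 0 for HFD in mutants and 1 for any difference among the 4 groups.

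With each of the 12 libraries left out in turn, the results below turned sign or moved at least once. For genotype on chow the log2 difference ranged from -0.047 to 0.29 for Nkx2-1, -0.17 to 0.19 for Tbx3, -0.33 to 0.14 for Tbx2, -0.31 to 0.42 for Isl1, -0.029 to 0.46 for Hmx2, -0.42 to 0.53 for Hmx3 and -0.51 to 0.22 for Dlx1. For genotype on HFD the log2 difference ranged from -0.62 to 0.12 for Tbx3, -0.59 to 0.48 for Otp, -0.42 to 1.13 for Isl1, -1.06 to 2.36 for Nr5a1, -0.46 to 3.96 for Fezf1 and -0.16 to 0.18 for Dlx1. For genotype averaged over diets the log2 difference ranged from -0.30 to 0.070 for Tbx3, -0.43 to 0.10 for Otp, -0.17 to 0.61 for Isl1, -0.039 to 0.43 for Hmx3 and -0.26 to 0.11 for Dlx1. For HFD in mutants the log2 difference ranged from -0.41 to 0.32 for Isl1 and -0.16 to 0.32 for Hmx2. For HFD in controls the log2 difference ranged from -0.72 to 0.020 for Tbx3, -0.60 to 0.47 for Otp, -1.12 to 0.43 for Isl1, -1.72 to 1.71 for Nr5a1, -1.42 to 2.999 for Fezf1 and -0.15 to 0.79 for Hmx3. For the interaction the log2 difference ranged from -0.076 to 0.34 for Nkx2-1, -0.63 to 0.10 for Tbx3, -0.32 to 0.75 for Otp, -0.51 to 1.05 for Isl1, -2.50 to 0.92 for Nr5a1, -2.43 to 1.99 for Fezf1, -0.19 to 0.75 for Hmx3 and -0.23 to 0.50 for Dlx1. The number of all genes called ranged from 1 to 4 for genotype on chow (moved by control chow replicate 1, control chow replicate 2 and mutant chow replicate 4), 1 to 2 for genotype on HFD (moved by mutant chow replicate 3), 1 to 2 for genotype averaged over diets (moved by mutant chow replicate 3 and control HFD replicate 2), 0 to 4 for HFD in mutants (moved by mutant HFD replicate 1, mutant HFD replicate 2 and mutant HFD replicate 3), 0 to 1 for the interaction (moved by control chow replicate 3) and 1 to 6 for any difference among the 4 groups (moved by mutant chow replicate 1, mutant chow replicate 3 and mutant chow replicate 4).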

Other observations

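Hmx2 had nearly the same signal in both control HFD libraries, 2.124 and 2.123, as had Tbx2 (7.25 and 7.32) and Dlx1 (46.6 and 46.8). The same libraries lay far apart for Isl1 (30.5 and 91.5), Otp (88.0 and 185.2), Nr5a1 (14.9 and 0.489) and Fezf1 (29.9 and 0.443).

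In control chow replicate 2 Esr1 was at 7.29, near the 6.05 of mutant chow replicate 1. The same library had the highest column sum, the highest Nkx2-1 (82.7), Tbx2 (14.01) and Hmx3 (26.0), the lowest Dlx1 (15.8), and the highest Agrp (787.5) and Cga (4802). None of these values was rescaled for that sum.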
